A study of Homo sapiens with 12 samples.

Results

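RPE1 cells sorted at a 4N DNA content were compared, across all genes, with RPE1 cells sorted at a 2N DNA content, in cultures that had received a non-targeting siRNA. RPE1 is an immortalised human line from retinal pigment epithelium. The libraries were assigned to the gates by their labels: 3 libraries of 4N cells and 3 libraries of 2N cells, which are 6 of the 12 libraries of the study. All 6 came from cultures transfected with the non-targeting siRNA, which the labels call Random, with Lipofectamine RNAiMAX for 24 hours. The cells were stained live with the DNA dye Hoechst 33342 at 2 μg/mL for 60 minutes at 37 °C and sorted by DNA content. The other 6 libraries came from cultures given an siRNA against Anillin, a cytokinesis protein, sorted in the same way, and they entered the estimate of the spread and a comparison at the end. Every cell of the study, in control cultures too, was therefore transfected, Hoechst-stained and sorted.

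A cell doubles its DNA in S phase, so cells before replication have a 2N DNA content and cells in G2 and mitosis have a 4N content. Entry into mitosis is driven by the kinase CDK1 bound to cyclin A or cyclin B, and the genes for the mitotic machinery are transcribed mainly in late S phase, G2 and mitosis. They are repressed in G1 by the DREAM complex, which contacts the CHR element in their promoters, and switched on by the MuvB core with B-MYB (MYBL2) and FOXM1, while NF-Y binds CCAAT boxes nearby. Genes for DNA replication are driven earlier, at the G1/S boundary, by E2F factors. A gate on DNA content does not tell G2 from mitosis, nor a G2 cell from a tetraploid G1 cell or from a pair of attached 2N cells. No value here measures how many of each the 4N gate held.

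Expression was given by the authors as RPKM, read counts divided by gene length and library size. The length used was the genomic span of a gene with its introns for the genes where it could be recovered, so RPKM values are compared between libraries for one gene and never between genes. The 6 control libraries held 24943099 to 61760453 reads in genes, and mitochondrial genes took 3.31% to 3.90% of them. Of the retinal pigment epithelium markers, OTX2, RDH5, KRT8 and KRT18 passed the expression filter. RPE65, RLBP1, BEST1, MITF, PMEL and TYRP1 did not, and TTR and DCT were listed at 0 in every control library. The 16 markers together took 1046 to 1179 RPM (reads scaled to library size) in 2N and 940 to 951 in 4N. Of 12 blood markers only CD68 passed the filter, and the list summed to 45.9 to 46.6 RPM in 2N and 43.5 to 45.4 in 4N. Of 12 markers of other epithelia and muscle only MUC1 passed, with 21.3 to 23.4 RPM for the list in 2N and 14.1 to 15.4 in 4N, and of the blood markers HBB, CD3E and TYROBP were listed at 0. The part of these markers in the results was not tested.

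The cell cycle genes used to check the labels differed between the gates. CDK1, the kinase that starts mitosis (GRCh38 chromosome 10, 60778331 to 60794852, plus strand), was at 2.04, 1.38 and 1.62 RPKM in the 2N libraries and at 16.0, 14.2 and 14.4 RPKM in the 4N libraries. CCNB1, its mitotic cyclin (chromosome 5, 69167010 to 69178245, plus strand), was at 5.77, 3.92 and 4.80 RPKM in 2N and at 28.3, 24.5 and 26 RPKM in 4N. The 3 libraries of each gate lay close together, with a wide gap between the gates. CCNE2, the cyclin E2 gene of the G1/S transition, ran the other way, at 0.792, 0.600 and 0.791 RPKM in 2N and 0.264, 0.271 and 0.247 RPKM in 4N. Its paralogue CCNE1 stayed below the expression filter, at 0.369 ± 0.0214 RPKM in 2N and 0.175 ± 0.0109 RPKM in 4N (SD, n = 3). CCND1, the cyclin of early G1, was at 30.6, 26 and 30.3 RPKM in 2N and 33.6, 29.1 and 32.5 RPKM in 4N, so the gates overlapped and the difference was not called (log2 change 0.13 ± 0.09 SE, adjusted p = 0.277). ANLN, the gene of Anillin itself, which the siRNA of these cultures did not target, was at 1.88, 1.25 and 1.66 RPKM in 2N and 8.42, 7.45 and 7.98 RPKM in 4N.

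**Figure D1:**
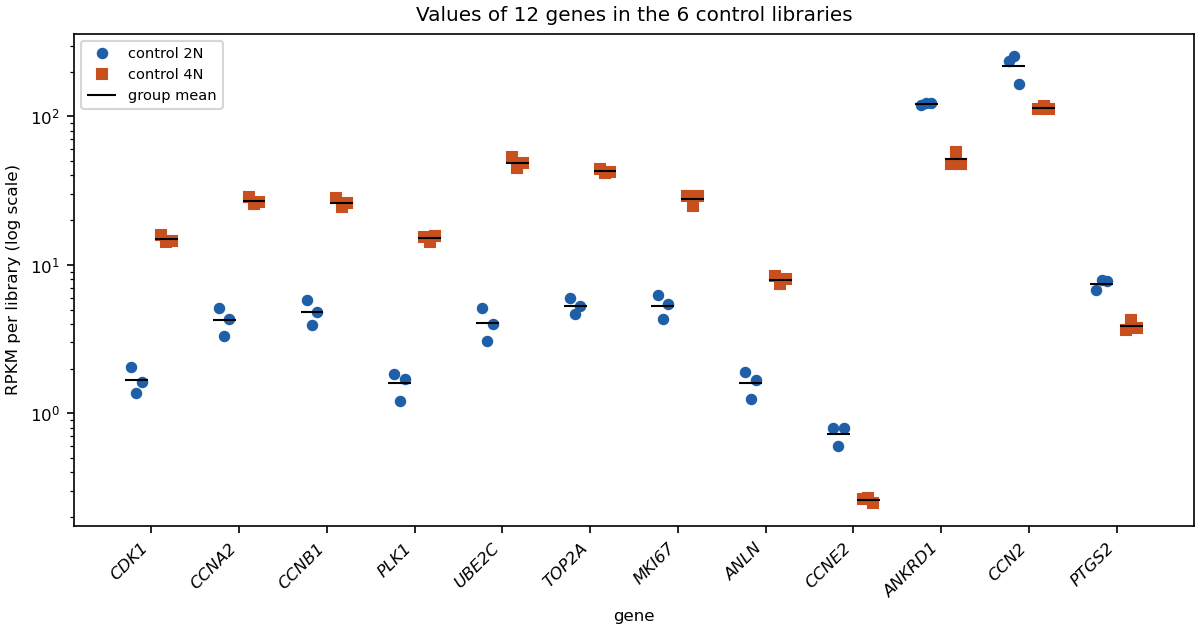
RPKM on a log scale for 12 genes in the 6 control libraries; circles are the 3 libraries of 2N cells, squares the 3 libraries of 4N cells, and bars the group means. The gates do not overlap for any of the 12, with CCNE2, ANKRD1, CCN2 and PTGS2 lower in 4N and the other 8 higher. No overlap was part of the rule that picked CDK1, CCNA2, PLK1, UBE2C, TOP2A, ANKRD1, CCN2 and PTGS2. It held for 49.8% of all genes tested.

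Of 12892 genes tested, 3079 were higher in 4N (23.9%) and 1703 were lower (13.2%), by limma on log2(RPKM + 0.5) with Benjamini-Hochberg adjusted p under 0.05. Most of these differences were small: the median absolute log2 change of the called genes was 0.27, and 82.2% of them lay under 0.5. The 3 libraries of one gate did not overlap those of the other for 49.8% of all genes tested. At least 2-fold, 224 genes were higher (1.74%) and 28 were lower (0.217%), and 53 of the rises were at least 4-fold. On the recovered reads, which take in more low genes and add no RPKM offset, 477 were at least 2-fold higher and 271 at least 2-fold lower. The balance of small changes depended on scaling, with 2096 genes higher and 2465 lower after quantile scaling, 2466 and 2237 after median-of-ratios scaling, and 4252 and 3926 of 22404 genes when the recovered reads were tested. Without 4N replicate 1, the shallowest control library, 1102 genes were called lower and 2279 higher. All values are relative to the library, since RNA per cell was not measured, and in bulk RNA fewer cells of a kind and less RNA per cell cannot be told apart.

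**Figure D2:**
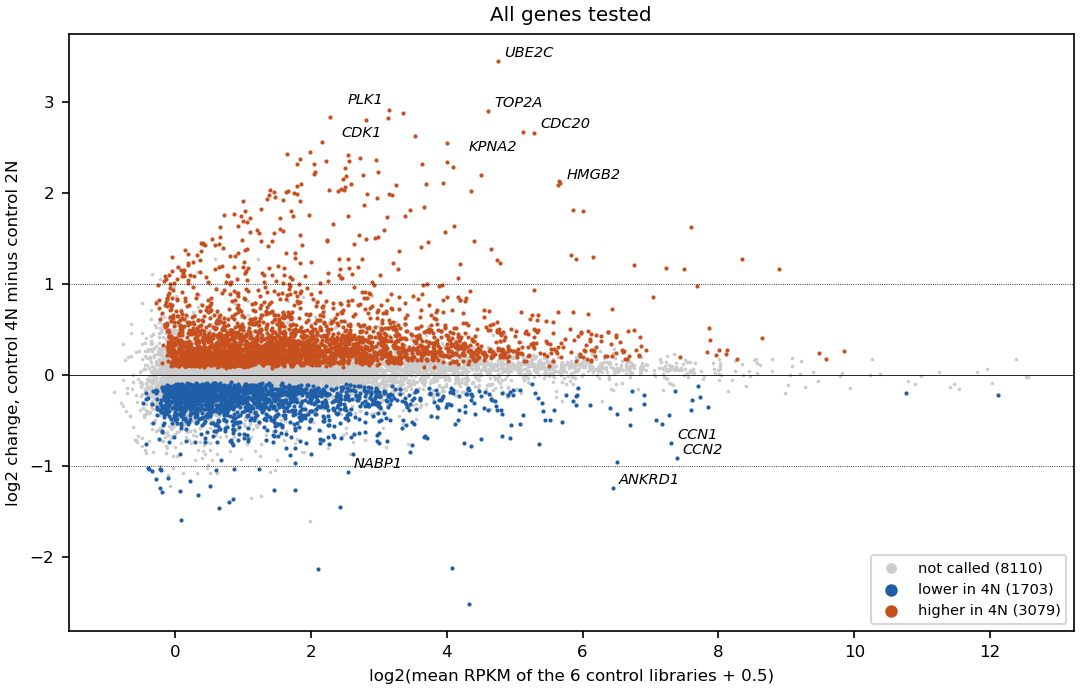
Each point is one of 12892 genes, with the log2 of its mean RPKM over the 6 control libraries (plus 0.5) on the horizontal axis and the log2 change of 4N over 2N on the vertical axis; dotted lines mark a 2-fold change. Colours mark the 3079 genes called higher and the 1703 called lower.

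The largest rises were genes of mitosis. UBE2C, the E2 enzyme that begins ubiquitin chains on substrates of the anaphase-promoting complex (chromosome 20, 45812576 to 45816957), was at 5.11, 3.08 and 3.98 RPKM in 2N and 53.1, 44.7 and 48.6 RPKM in 4N. That is a 12.0-fold ratio of means and a log2 change of 3.46 ± 0.14 (SE, adjusted p = 1.14e-07). PLK1, the Polo kinase of mitotic entry (chromosome 16, 23677656 to 23690367), was at 1.85, 1.21 and 1.70 RPKM in 2N and 15.4, 14.3 and 15.7 RPKM in 4N, a ratio of 9.53. TOP2A, topoisomerase II alpha, which untangles sister chromatids (chromosome 17, 40388516 to 40417950), went from 5.94, 4.64 and 5.28 RPKM to 44, 41.3 and 42.5 RPKM, a ratio of 8.06. Replicate 2 was the lowest library of its gate for each of these 3 genes, in 2N and in 4N. The next largest rises were TROAP, a spindle-associated protein (log2 change 2.88), CDK1 (2.82), NEK2, a centrosomal kinase (2.80), KPNA2, importin alpha 1 (2.67), CDC20, the activator of the anaphase-promoting complex (2.67), CDCA3, a trigger of mitotic entry (2.63), CDCA8, the passenger subunit Borealin (2.56), CCNA2, cyclin A2 (2.55), and KIF2C, a microtubule-depolymerising kinesin (2.46). The thirteenth gene lay just under them at 2.43. No overlap between gates was part of the rule that picked these 12.

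Promoters of risen genes are shown because the CHR element and the CCAAT box are the sequences through which DREAM, MuvB and NF-Y act on genes of this class, and because the promoters could be set beside a pair of replication genes. They are examples and need not be typical of their classes. Of the risen genes printed, only PLK1 is among the 12 largest rises. NEK2, CCNA2 and KIF2C, which are also among those 12, held no CHR match in their first listed promoter. Each stretch is RefSeq sequence of GRCh38.p14 on the gene's own strand, from 130 bases before the start site. Capitals mark CHR matches (TTTGAA or its reverse complement), CCAAT boxes (CCAAT or ATTGG) and E2F matches (TTTCCCGC, TTTCGCGC, TTTGCCGC or TTTGGCGC and their reverse complements).
PLK1, chr16:23678759-23678918, plus strand: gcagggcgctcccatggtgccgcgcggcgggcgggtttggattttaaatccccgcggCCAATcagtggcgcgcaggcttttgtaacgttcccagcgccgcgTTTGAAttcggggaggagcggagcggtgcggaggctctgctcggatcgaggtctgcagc
CCNB2, chr15:59105016-59105175, plus strand: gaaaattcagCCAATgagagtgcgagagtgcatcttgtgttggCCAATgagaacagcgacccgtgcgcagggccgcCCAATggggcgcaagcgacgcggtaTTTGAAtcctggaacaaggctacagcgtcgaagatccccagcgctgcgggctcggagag
MKI67, chr10:128126394-128126553, minus strand: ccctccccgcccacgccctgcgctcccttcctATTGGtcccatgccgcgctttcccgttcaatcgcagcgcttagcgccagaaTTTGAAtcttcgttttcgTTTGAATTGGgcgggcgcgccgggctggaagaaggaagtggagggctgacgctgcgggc
KIF23, chr15:69414219-69414378, plus strand: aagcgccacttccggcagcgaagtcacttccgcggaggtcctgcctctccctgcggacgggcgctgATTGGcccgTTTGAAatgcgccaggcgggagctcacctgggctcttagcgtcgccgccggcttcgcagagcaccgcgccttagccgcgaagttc
MCM7, chr7:100101368-100101527, minus strand: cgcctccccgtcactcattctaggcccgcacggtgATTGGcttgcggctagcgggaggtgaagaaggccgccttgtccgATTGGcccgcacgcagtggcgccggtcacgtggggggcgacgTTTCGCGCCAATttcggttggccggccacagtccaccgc
CDC6, chr17:40287749-40287908, plus strand: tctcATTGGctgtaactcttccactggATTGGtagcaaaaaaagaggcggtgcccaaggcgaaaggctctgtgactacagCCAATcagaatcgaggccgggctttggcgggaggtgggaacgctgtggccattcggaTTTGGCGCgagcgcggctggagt

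Positions are counted from the start site to the first base of a match. PLK1 and CCNB2 each held a CHR match at -29, with a CCAAT box at -73 in PLK1 and CCAAT boxes at -120, -87 and -54 in CCNB2. MKI67, the gene of the proliferation antigen Ki-67, held CHR matches at -47 and -29 and CCAAT boxes on the other strand at -98 and -24, the last of which shares a base with the CHR match at -29. KIF23, a cytokinesis kinesin, held a CHR match at -55 and a CCAAT box at -64. MCM7 and CDC6, which act in replication licensing, held no CHR match in this window. MCM7 held an E2F match at -9, which overlaps a CCAAT box at -2, and CDC6 held an E2F match at 7 bases after the start.

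Over the genes with a RefSeq promoter, 300 bases long, the CHR match was found in 55.6% of 142 genes called at least 2-fold higher and in 73.7% of 38 called at least 4-fold higher. The same letters were found in 10.2% of 2009 genes with smaller rises, 7.78% of 1118 lower genes, 7.25% of 3740 genes not called, and 15.4% of all 27305 genes with a promoter in the table. The CCAAT box was found in 67.6% of the genes at least 2-fold higher, 36.6% of the genes not called and 35.7% of all promoters. A CHR match and a CCAAT box together were found in 43% of the genes at least 2-fold higher and 2.73% of those not called. E2F matches went another way: they were found in 4.93% of the genes at least 2-fold higher, 5.11% of those not called and 38.8% of 49 tested genes of the replication lists. Of the 12 largest rises, 10 had a promoter in the table, and 7 of these held a CHR match and 9 a CCAAT box. Of the 12 largest falls, 11 had a promoter, and 2 held a CHR match and 8 a CCAAT box. CCNA2 and CCNB1 had CCAAT boxes but no such CHR match in this window of their first listed promoter. These shares are descriptions of letters in a window and were not tested.

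**Figure D3:**
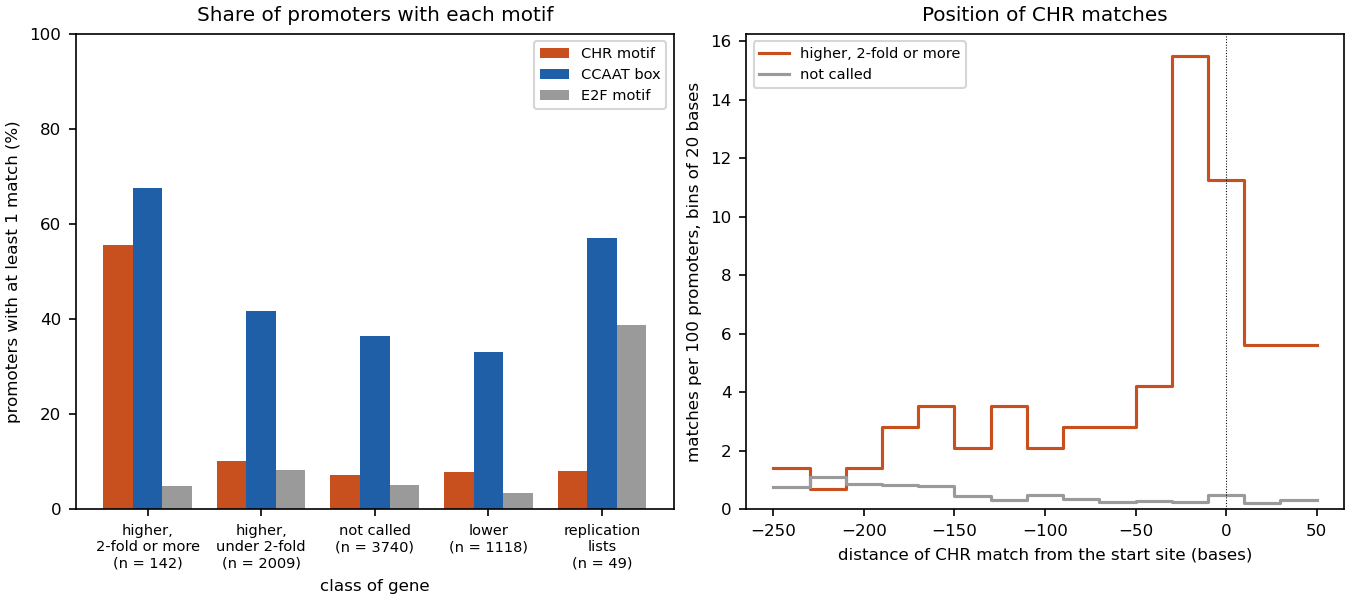
Left, percentage of promoters with at least 1 CHR, CCAAT or E2F match in 5 classes of genes (number of promoters in brackets); right, CHR matches per 100 promoters in bins of 20 bases against distance from the start site, for genes at least 2-fold higher and genes not called. In the higher genes the matches pile up close to the start site, while the line of genes not called is nearly flat.

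Together, 9 lists of mitotic genes, ordered by their roles, held 189 genes found in the table, of which 168 passed the expression filter. Some of the 168, such as TTK, NDC80 and CENPE, passed it only through their control 4N values. Of the 168, 150 were higher and 6 lower, with a median log2 change of 1.11, against 0.05 over all genes tested. The shares over all genes tested were 23.9% higher and 13.2% lower, and every list count below stands beside them. The 189 genes took 15895, 14368 and 15548 RPM in the 2N libraries and 30900, 28516 and 29880 in the 4N libraries. Of the 224 genes called at least 2-fold higher, 92 belonged to these lists. On the recovered reads all 189 could be tested, and 164 were higher and 7 lower.

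The genes of the CDK1 switch rose. All 16 tested members were higher, 11 of them at least 2-fold, with a median log2 change of 1.44, and 14 were called higher after quantile scaling. CKS1B, a small subunit that binds CDK1, was at 5.58, 3.24 and 4.48 RPKM in 2N and 22.6, 18.8 and 19.7 RPKM in 4N (log2 change 2.10 ± 0.16). The smallest changes of this list were in WEE1 and ENSA. WEE1, the kinase that holds CDK1 inactive, was at 6.62, 7.73 and 7.47 RPKM in 2N and 8.16, 9.17 and 8.28 RPKM in 4N (log2 change 0.22, adjusted p = 0.0464, a call that 9 alternatives did not keep). ENSA, which lies at the end of the Greatwall pathway and inhibits the phosphatase PP2A, changed by 0.15, a call that was lost after quantile scaling (adjusted p = 0.315). Of the transcription factors of the G2/M programme, 9 were tested and 6 rose. FOXM1 was at 7.25, 5.32 and 7.06 RPKM in 2N and 19.6, 17.3 and 19.5 RPKM in 4N, a log2 change of 1.46 ± 0.10 (adjusted p = 3.68e-06). MYBL2 was at 0.749, 0.453 and 0.807 RPKM in 2N and 1.51, 1.21 and 1.45 RPKM in 4N (0.70 ± 0.11). NFYB, a subunit of NF-Y, and E2F4, a subunit of DREAM, changed by 0.26 and 0.22, and the call for E2F4 was lost in 5 of the alternatives tried. B9D1, the only gene of that list that was lower (log2 change -0.17), codes for a protein of the primary cilium and is no transcription factor.

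The Polo and Aurora kinases and the chromosome passenger complex had a median log2 change of 1.96, with 11 of 14 members higher and 3 lower. AURKB, the Aurora kinase of the passenger complex, was at 2.49, 1.36 and 2.37 RPKM in 2N and 13.9, 11.1 and 12.6 RPKM in 4N. AURKA, the Aurora kinase of spindle poles, was at 1.57, 1.22 and 1.49 RPKM in 2N and 9.63, 8.04 and 8.93 RPKM in 4N. The passenger subunit BIRC5, or survivin, was at 5.92, 3.78 and 5.53 RPKM in 2N and 21.2, 17.4 and 19.6 RPKM in 4N. Against these rises, NEK9 and the related NEK6 and NEK7, kinases that act downstream of CDK1 and PLK1 in spindle assembly, fell by small amounts. Their log2 changes were -0.18, -0.15 and -0.15, and NEK9 was at 2.95, 3.22 and 3.10 RPKM in 2N and 2.51, 2.82 and 2.65 RPKM in 4N, with no overlap.

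The list of the anaphase-promoting complex and its partners ran from small to large changes. CDC20 was at 12.2, 7.35 and 11.3 RPKM in 2N and 71.3, 60.8 and 68.3 RPKM in 4N. UBE2S, the E2 enzyme that elongates the chains begun by UBE2C, changed by a log2 of 2.02, and ESPL1, the protease separase that the complex releases, by 1.70. The list had 15 of 19 members higher and 1 lower, with a median log2 change of 0.32. Among the core subunits, CDC27 rose most (0.55), ANAPC2, ANAPC16 and CDC26 were not called, and ANAPC4 was lower by a log2 of -0.12, a call that was lost without 4N replicate 1 (adjusted p = 0.0657).

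All 11 tested genes of the spindle checkpoint and all 33 of the kinetochore and centromere were higher, with medians of 1.38 and 1.05. BUB1, a checkpoint kinase, was at 1.07, 0.711 and 0.936 RPKM in 2N and 5.33, 4.81 and 4.98 RPKM in 4N. TTK, the kinase MPS1, changed by a log2 of 1.91, BUB1B by 1.83 and MAD2L1 by 1.74. BUB3, their partner at the kinetochore, was at 14.5, 12.2 and 13.6 RPKM in 2N and 38.6, 33.9 and 35.1 RPKM in 4N. At the kinetochore, CENPF was at 1.64, 1.25 and 1.40 RPKM in 2N and 9.78, 8.67 and 9.50 RPKM in 4N. HJURP, the chaperone that loads the centromeric histone CENP-A, was at 1.08, 0.652 and 0.917 RPKM in 2N and 6.79, 5.81 and 6.56 RPKM in 4N. NDC80, which holds the microtubule end, changed by a log2 of 1.8 and CENPE, a kinetochore kinesin, by 1.77. TTK, NDC80 and CENPE reached 0.5 RPKM in the control 4N libraries alone, so they entered these counts only through the gate where they were high. On the recovered reads, all 12 checkpoint genes and all 37 kinetochore and centromere genes were higher.

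All 12 mitotic kinesins tested and 23 of 24 spindle microtubule proteins rose, with medians of 1.92 and 1.96. KIF20A, the kinesin MKLP2 of the central spindle, was at 9.28, 5.94 and 7.89 RPKM in 2N and 37.4, 34.9 and 37.5 RPKM in 4N. KIF23, the kinesin MKLP1, was at 1.91, 1.26 and 1.51 RPKM in 2N and 9.43, 8.34 and 8.81 RPKM in 4N. KIFC1, a minus-end-directed kinesin, changed by a log2 of 2.16. Of the spindle proteins, KNSTRN changed by 2.39, FAM83D by 2.38 and ASPM, which gathers microtubules at the poles, by 2.33. NUMA1, which organises spindle poles but is a nuclear protein throughout interphase, was the member not called, at 3.39, 3.73 and 3.66 RPKM in 2N and 3.43, 3.43 and 3.66 RPKM in 4N. The α and β tubulins, the material of the spindle, rose in 9 of 10 cases (median 0.87). TUBB4B was at 106, 76.2 and 101 RPKM in 2N and 314, 256 and 304 RPKM in 4N, and TUBA1C, TUBB and TUBA1B changed by 1.41, 1.28 and 1.17. Tubulin genes are close copies of one another, so reads may have been split among them.

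Cytokinesis genes ranged from large rises to genes not called. Of 26 genes tested, 16 were higher and 2 lower, with a median of 0.21, and after quantile scaling 12 were higher and 6 lower. Of all genes tested, 23.9% were higher and 13.2% lower, and the 2 falls in 26 are under that share. The 7 rises of at least 2-fold were CEP55, KIF23, PRC1, ANLN, RACGAP1, ECT2 and CIT, which build the central spindle, the contractile ring and the midbody. CEP55, the midbody protein that recruits the abscission machinery, was at 2.38, 1.42 and 2.08 RPKM in 2N and 11.4, 9.87 and 10.5 RPKM in 4N. PRC1, which bundles the central spindle, changed by a log2 of 2.08, and ANLN by 2.02 ± 0.10 (adjusted p = 2.7e-07). RHOA, the GTPase that the central spindle activates, changed by 0.25, a call that was lost after quantile scaling (adjusted p = 0.112). MYL9 and MYH9, light and heavy chains of non-muscle myosin II, were lower, by log2 changes of -0.29 and -0.19, and the call for MYH9 was lost in 7 alternatives.

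Chromosome structure and the nuclear envelope followed. All 19 tested genes of condensin, cohesin and related proteins were higher, with a median of 1.02. After median-of-ratios scaling 17 were called higher, and on the recovered reads 21 of 24 were higher and 1 lower. MKI67 was at 6.22, 4.33 and 5.40 RPKM in 2N and 29.1, 25 and 29.3 RPKM in 4N, and the condensin I subunits NCAPG and NCAPH changed by log2 values of 1.75 and 1.64. Of 27 genes of the nuclear envelope and nuclear transport, 23 were higher and none lower, with a median of 0.54. KPNA2 was at 10.2, 7.75 and 8.94 RPKM in 2N and 63.0, 55.5 and 60.2 RPKM in 4N. TMPO, a lamina-associated protein, changed by 1.54, LMNB1, lamin B1, by 1.38, and RANGAP1 by 1.28, while LMNA, the gene of lamins A and C, was not called (0.16, adjusted p = 0.123). The HMG chromatin proteins rose in 8 of 9 cases. HMGB2 was at 21.2, 15.2 and 20.0 RPKM in 2N and 87.4, 78.3 and 80.8 RPKM in 4N, and HMGB3 changed by 1.51 and HMGN2 by 0.86.

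Centrosome genes rose and genes of the primary cilium did not move together. Of 16 centrosome and centriole genes tested, 14 were higher and none lower, with a median of 0.42. PLK4, the kinase that starts centriole duplication, was at 0.998, 0.745 and 0.964 RPKM in 2N and 3.37, 3.20 and 3.17 RPKM in 4N. CNTROB, TUBG1, the γ-tubulin of microtubule nucleation, and ODF2 changed by log2 values of 1.05, 0.99 and 0.91. The primary cilium is built on a centriole outside mitosis and taken down before it. Of 22 of its genes tested, 5 were higher and 7 lower (median -0.05), and 3 were lower when only the control libraries were fitted. Over all genes tested 23.9% were higher and 13.2% lower, and the count of higher cilium genes is near that share. The largest fall was in SMO, the ciliary transducer of Hedgehog signals, at 1.34, 1.43 and 1.35 RPKM in 2N and 0.958, 1.04 and 1.10 RPKM in 4N. IFT27, a subunit of intraflagellar transport, fell by 0.27 on the log2 scale, and GLI1, a target of Hedgehog signalling, by 0.29, a call that 5 alternatives did not keep. RAB8A and TULP3, which traffic membrane proteins to the cilium, rose by 0.54 and 0.45.

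**Figure D4:**
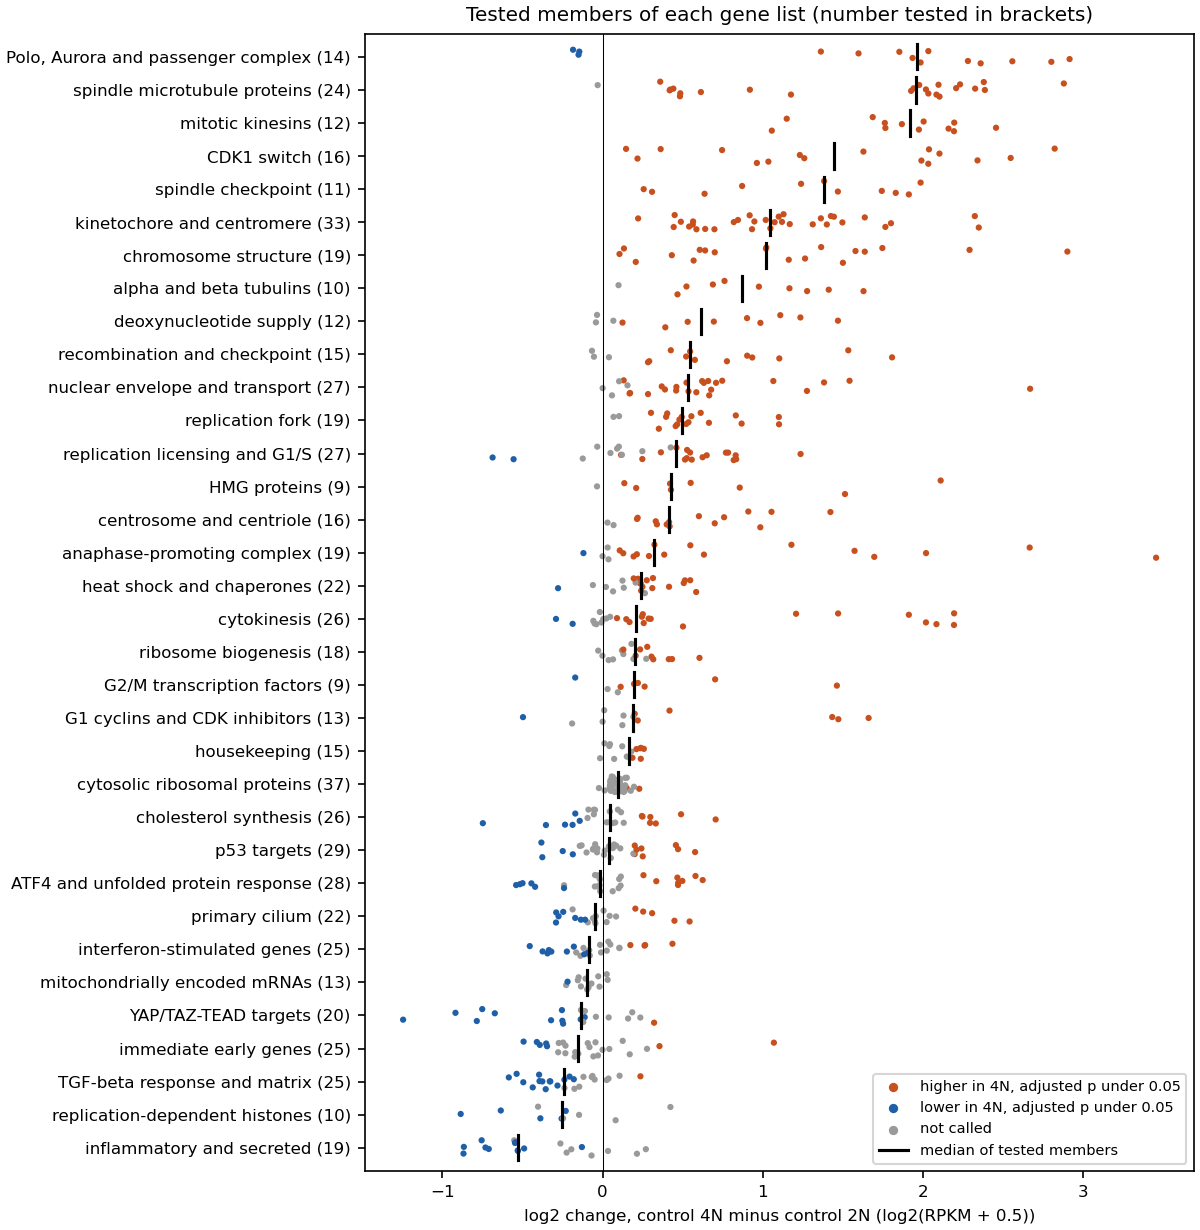
Log2 change of 4N over 2N for each tested member of 34 gene lists, ordered by their median (bar); orange points were called higher, blue points lower and grey points were not called. Lists of the spindle, its kinases and the kinetochore sit at the top with medians above 1, replication lists lie near 0.5, and the inflammatory list is lowest at -0.53.

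DNA replication genes were higher in 4N too, by less. Across 3 lists (licensing and G1/S, the fork, deoxynucleotide supply) 58 genes were tested, 43 were higher and 2 lower, and the median was 0.50. Their RPM were 3827, 3130 and 3850 in 2N and 5340, 4672 and 5045 in 4N. Members did not behave alike. Within the MCM helicase, MCM7 was at 13.6, 9.77 and 15.1 RPKM in 2N and 24.9, 19.6 and 23.6 RPKM in 4N, a log2 change of 0.82 ± 0.14 (adjusted p = 0.00162). MCM4 was called higher too (0.55), though not when only the control libraries were fitted (adjusted p = 0.0605), whereas MCM5 (0.43, adjusted p = 0.0527), MCM3, MCM2 and MCM6 (-0.12, adjusted p = 0.36) were not. MCM5 passed the threshold in 5 alternatives, and MCM6 was called lower without 2N replicate 2. CDC6, which loads the helicase, was at 2.13, 1.28 and 2.07 RPKM in 2N and 2.14, 1.62 and 1.88 RPKM in 4N and was not called, with a sign that turned in 4 alternatives. E2F1 was at 2.03, 1.23 and 2.11 RPKM in 2N and 2.09, 1.69 and 2.09 RPKM in 4N and was not called.

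The rises in licensing were led by ORC6, an origin recognition subunit (1.81, 1.32 and 1.82 RPKM in 2N and 4.90, 4.31 and 4.41 RPKM in 4N, log2 change 1.24 ± 0.09), CDT1, a helicase loader (0.83), and CDK2 (0.83). The falls were CCNE2 (-0.69 ± 0.06, adjusted p = 3.34e-05) and UNG, the uracil glycosylase that removes uracil from new DNA, at 2.97, 2.44 and 3.10 RPKM in 2N and 1.8, 1.76 and 1.73 RPKM in 4N (-0.56). CCNE1 was below the filter. On the recovered reads both cyclin E genes were called lower, CCNE2 with a log2 change of -1.51 and CCNE1 with -1.06. At the fork, CHTF18, part of a clamp loader, and ASF1B, a histone chaperone, each changed by 1.10, and PCNA, the sliding clamp, was at 9.23, 6.21 and 8.59 RPKM in 2N and 13.1, 10.8 and 11.8 RPKM in 4N (0.55 ± 0.13, adjusted p = 0.00708). In nucleotide supply, RRM2, the regulatory subunit of ribonucleotide reductase, was at 12.8, 7.71 and 12.0 RPKM in 2N and 33.3, 26.6 and 31.1 RPKM in 4N. TYMS, thymidylate synthase, changed by 1.24, DTYMK by 1.11 and TK1 by 0.99.

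Of 15 recombination and DNA damage checkpoint genes tested, 12 were higher and none lower. This count and the histone count below stand beside 23.9% higher and 13.2% lower over all genes tested. H2AX, the histone variant that marks DNA breaks, was at 32.6, 23.1 and 28.8 RPKM in 2N and 114, 78.6 and 108 RPKM in 4N. UBE2T, FANCG and FANCI of the Fanconi anaemia pathway changed by 1.53, 1.10 and 0.93. Of the replication-dependent histones, 23 of 57 symbols were matched and 10 passed the filter, with 5 lower and none higher. Their transcripts end in a stem-loop and mostly lack a poly(A) tail, and the labels name both a ribosomal RNA depletion and an mRNA kit, so how well they were captured is not known. H2BC21 was at 3.24, 4.5 and 3.35 RPKM in 2N and 1.54, 2.34 and 1.47 RPKM in 4N, with H2AC6 (-0.64) and H4C8 (-0.39) next. H2BC21, which is among the 12 largest falls, had 82 or more reads in every control library.

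The inhibitors of G1 cyclin-dependent kinases split. CDKN2D, the inhibitor p19, was at 1.98, 1.62 and 2.12 RPKM in 2N and 7.44, 6.41 and 7.46 RPKM in 4N (log2 change 1.66 ± 0.11). CDKN2C, the inhibitor p18, changed by 1.43, and CDKN3, a phosphatase of cyclin-dependent kinases, by 1.47. CDKN2B, the inhibitor p15, a target of TGF-β, was lower, at 10.5, 12.3 and 11.6 RPKM in 2N and 7.09, 8.88 and 7.99 RPKM in 4N (-0.50 ± 0.07, adjusted p = 0.000757). CDKN2A and CDKN1B were not called. CDKN1A, the inhibitor p21, was at 25.9, 28.2 and 26.9 RPKM in 2N and 28.4, 33.8 and 31.3 RPKM in 4N, and its call (0.20 ± 0.06, adjusted p = 0.0313) was lost in 8 alternatives. Of 29 p53 targets tested, 8 were higher and 4 lower, with a median of 0.04, which was -0.02 after quantile scaling. These counts are near the 23.9% higher and 13.2% lower over all genes tested. FAS, BAX and FDXR rose by 0.58, 0.47 and 0.46, and GADD45A and PLK2 fell by 0.38 each.

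The named falls were smaller than the named rises. Among coding genes with a mean of at least 2 RPKM in a gate, the largest on the log2(RPKM + 0.5) scale was ANKRD1, a target of the Hippo pathway coactivators YAP and TAZ (chromosome 10, 90912096 to 90921276, minus strand), at 119, 124 and 122 RPKM in 2N and 48, 57.8 and 47.9 RPKM in 4N. Its 2N mean was 2.37 times the 4N mean (log2 change -1.25 ± 0.10, adjusted p = 1.53e-05). NABP1, a single-stranded DNA binding protein, was at 7.14, 8.10 and 6.90 RPKM in 2N and 2.82, 3.79 and 3.21 RPKM in 4N, a log2 change of -1.07. The others of the 12 were CCN2 (-0.92), H2BC21 (-0.89), IL1B (-0.87), PTGS2 (-0.87), LBH, a transcription cofactor (-0.80), F3 (-0.79), ALDH1B1, a mitochondrial aldehyde dehydrogenase (-0.77), PTX3, a secreted pentraxin (-0.76), CCN1 (-0.75) and TM7SF2 (-0.75). No overlap was again part of the rule, and the thirteenth fall was also at -0.75.

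Of 20 YAP/TAZ targets tested, 11 were lower and 1 higher (median -0.14). This count and that of the TGF-β list below stand beside 13.2% lower and 23.9% higher over all genes tested. CCN2, a matricellular protein, was at 238, 255 and 165 RPKM in 2N and 111, 117 and 113 RPKM in 4N, and CCN1 was at 204, 223 and 168 RPKM in 2N and 111, 123 and 117 RPKM in 4N. In both the 2N library of replicate 3 was the lowest of its gate. F3, tissue factor, was at 28.1, 24.6 and 23.5 RPKM in 2N and 14.7, 14.2 and 14.6 RPKM in 4N. The list took 7241, 7297 and 6822 RPM in 2N and 5158, 5149 and 5153 in 4N. AXL was the gene called higher (0.32), a call that 6 alternatives did not keep. Of 25 genes of the TGF-β response and extracellular matrix, 14 were lower and 1 higher (median -0.24), and 8 were lower without 4N replicate 1. ACTA2, smooth muscle actin, was at 3.93, 4.75 and 3.94 RPKM in 2N and 2.18, 3.15 and 2.62 RPKM in 4N. VIM, vimentin, was the member that rose, by 0.24.

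Genes of secreted inflammatory signals gave the lowest median of the lists, at -0.53, with 11 of 19 tested lower and none higher. On the recovered reads 16 of 22 were lower and 2 higher, and without 2N replicate 3 there were 12 lower and 2 higher. IL1B, the cytokine interleukin 1β, was at 4.58, 4.44 and 4.96 RPKM in 2N and 2.32, 2.45 and 2.21 RPKM in 4N. PTGS2, the inducible cyclooxygenase, was at 6.74, 7.95 and 7.75 RPKM in 2N and 3.61, 4.28 and 3.74 RPKM in 4N. CXCL2, a chemokine, was at 1.73, 1.24 and 2.31 RPKM in 2N and 0.888, 0.785 and 0.772 RPKM in 4N. CXCL8 was not called (-0.55, adjusted p = 0.145), with 2N values of 3.13, 1.77 and 1.75 RPKM. Of the 12 blood markers, CD68 alone passed the filter, at 16.7 RPKM in 2N and 16.9 RPKM in 4N, LYZ and CD14 were detected below it in both gates, and HBB, CD3E and TYROBP were at 0. The part of such cells in this list was not tested. Of 25 immediate early genes, 5 were lower and 2 higher, with 10 and 1 after quantile scaling and 2 and 2 when any 1 of the 4N libraries was left out. FOSL1, the AP-1 subunit FRA1, rose 2.12-fold, from 13.6, 8.70 and 11.3 RPKM to 25.4, 21.0 and 24.9 RPKM, while FOS, JUN and EGR1 were not called. ZFP36 fell by 0.49, a call that was lost when any 1 of the control libraries was left out, and KLF6 fell by 0.41. Of 25 interferon-stimulated genes, 9 were lower and 4 higher, led by IFIT2 (-0.45) and OAS3 (0.44). The immediate early and interferon counts stand beside 13.2% lower and 23.9% higher over all genes tested.

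Stress and growth lists moved little. Of 22 heat shock and chaperone genes, 14 were higher and 1 lower (median 0.24), and 8 were higher after quantile scaling. STIP1, a co-chaperone, changed by 0.58, CCT5, a subunit of the tubulin- and actin-folding chaperonin, by 0.55 and HSPA8 by 0.51. In the ATF4 pathway and the unfolded protein response 28 genes were tested, and 8 were higher and 6 lower, beside 23.9% and 13.2% of all genes. PSAT1, MTHFD2, CHAC1 and PHGDH, which are ATF4 targets and mostly enzymes of serine and folate metabolism, rose by 0.47 to 0.63. DDIT3, also a target of ATF4, and HERPUD1 and HSPA5, which respond to stress in the endoplasmic reticulum, fell by 0.54, 0.52 and 0.44, and HSPA5, the chaperone BiP, was at 167, 186 and 178 RPKM in 2N and 128, 134 and 128 RPKM in 4N. In cholesterol synthesis 7 of 26 were higher and 6 lower, and the higher share was near that of all genes. TM7SF2, a sterol reductase, was at 4.29, 4.35 and 4.14 RPKM in 2N and 2.05, 2.64 and 2.34 RPKM in 4N, and TMEM97 rose by 0.71. Of 18 ribosome biogenesis genes 9 were higher, and 5 were after quantile scaling. Of 37 cytosolic ribosomal protein genes 2 were higher with a median of 0.09, which was -0.01 after quantile scaling with 5 lower. Of 13 mitochondrially encoded mRNAs only MT-CO1 was called (-0.22), a call that 3 alternatives did not keep. GAPDH and ACTB were not called (0.18 and 0.17, adjusted p = 0.0952 and 0.0558), and each was called higher on the recovered reads.

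Classes of non-coding features leaned different ways. Of 305 lincRNAs (long non-coding RNAs) tested, 20 were higher and 61 lower, and of 344 antisense RNAs 20 were higher and 60 lower. Of 1939 processed pseudogenes, 301 were higher and 27 lower. Over all genes tested, 23.9% were higher and 13.2% lower. Of the 224 genes at least 2-fold higher, 169 were protein-coding and 40 were pseudogenes, and the 3 largest rises outside coding genes, UBE2SP2, CKS1BP2 and UBE2SP1, are pseudogene copies of UBE2S and CKS1B, genes that rose themselves. Reads may be shared between such copies, so these values are uncertain. Of the 28 genes at least 2-fold lower, 3 were protein-coding, 11 had no annotation in the reference used and 14 were of other types, with a median span of 92 bases outside the coding genes. Such short features pass on few reads, and only 10 of the 28 could be tested on the recovered reads. The long non-coding RNA MIAT was at 3.56, 4.94 and 3.51 RPKM in 2N and 1.38, 2.25 and 1.81 RPKM in 4N, with at least 991 reads in each control library. SNORD38B and RNU6-312P, small RNAs lower by -1.45 and -1.03, had as few as 2 reads in a library and lost their calls in 4 and 5 alternatives.

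The same 4N minus 2N difference was smaller after Anillin siRNA for many of these genes. The difference between the changes (control minus Anillin) was tested for each gene, and no library is shared between the sides. It was higher in control for 1383 genes (10.7%) and lower for 636 (4.93%). By its own test the Anillin 4N minus 2N change was called higher for 336 genes (2.61%) and lower for 125 (0.97%). Of the 168 tested mitotic genes, 132 had a higher change in control and none a lower one. The median log2 change of the 168 was 1.11 in control and 0.25 after Anillin siRNA. Some of them, such as TTK, NDC80 and CENPE, passed the filter only through control 4N. Their Anillin values lay below the offset of 0.5, which shrinks the change on that side. TTK was at 0.120, 0.120 and 0.128 RPKM in Anillin 2N and 0.387, 0.366 and 0.399 RPKM in Anillin 4N, yet its log2 change with the offset was 0.51. How far this lowered the Anillin median and raised the count was not tested. The 189 listed genes took 12291 to 12603 RPM in Anillin 2N and 13930 to 14297 in Anillin 4N. CDK1 changed by 2.82 in control and 0.97 after Anillin siRNA, a difference of 1.85 (adjusted p = 3.25e-05). KPNA2 changed by 2.67 and 0.73. CDC20 changed by 2.67 and 1.77, a difference of 0.90 (adjusted p = 0.0203). For some genes with low Anillin 2N values the size of the difference depended on the offset of 0.5. On the recovered reads it was 0.83 for NEK2 (1.56 with the offset), 0.85 for TROAP (1.31), 0.58 for CDCA3 (1.06) and 0.80 for KIF2C (1.44). For CDCA8, also low in Anillin 2N (0.370, 0.369 and 0.293 RPKM), it moved little, to 1.77 from 1.84. Of the falls, TM7SF2 changed by -0.75 in control and 0.14 after Anillin siRNA, and CCN2 by -0.92 and -0.65, a difference that was not called (adjusted p = 0.39). CDKN1A changed by 0.20 in control and 0.99 after Anillin siRNA, a difference of -0.79. PCNA changed by 0.55 and 0.52. Of the 29 p53 targets tested, 20 had a lower change in control and none a higher one, with median log2 changes of 0.04 in control and 0.45 after Anillin siRNA. Since the largest rises and falls were picked by their change in control, which is a term of this difference, their differences lean towards larger values. ANLN is the target of the siRNA on the other side, and its difference of 1.96 is not comparable with the rest.

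**Figure D5:**
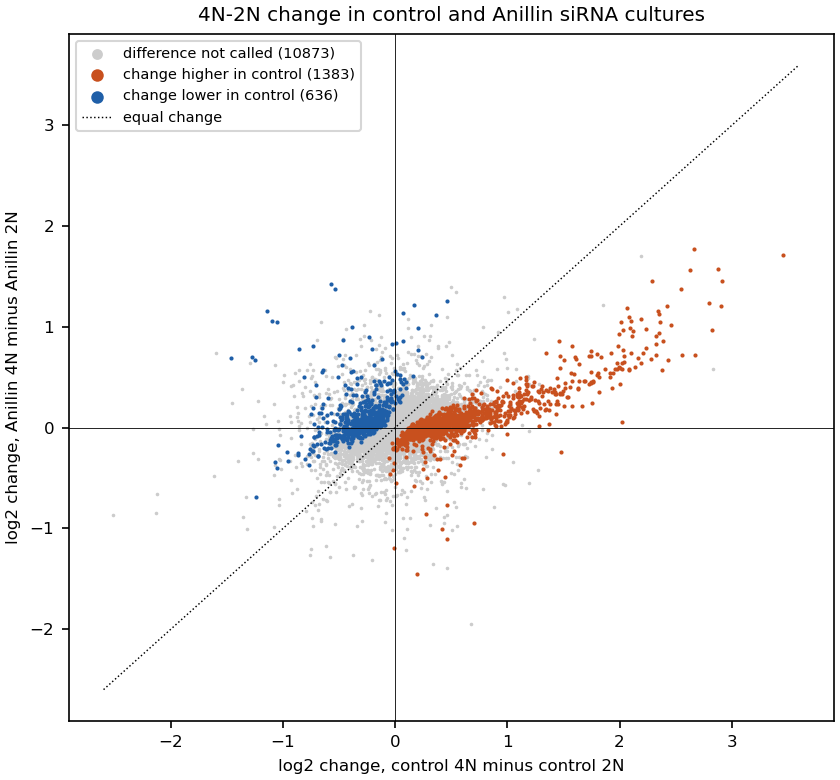
Each point is a gene, with its log2 change of 4N over 2N in control cultures on the horizontal axis and after Anillin siRNA on the vertical axis; the dotted line marks equal changes. Orange marks 1383 genes whose change was higher in control and blue 636 whose change was lower, and the genes with the largest control rises lie below the dotted line.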

How the data were processed

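The authors deposited 1 table of RPKM values for 57773 genes in 12 libraries, 3 in each of 4 groups. Per the submitters' processing notes, CASAVA 1.8.2, TopHat2, edgeR and hg19 were used, with no role stated. Per the labels' protocols, live Hoechst-stained cells were sorted by DNA content; the labels name both ribosomal RNA depletion of total RNA and a stranded mRNA kit. They do not say that replicates were separate cultures, so p-values measure the spread between these samples, which may be technical.

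RPKM values were tested as log2(RPKM + 0.5) with limma 3.58.1 (trend) in R 4.3.3. Genes at 0.5 RPKM or more in at least 3 of 12 libraries entered (12892), and 1 mean per group was fitted over all 12 libraries (8 residual degrees of freedom). A gene at that level in 1 group alone could therefore enter, while a gene low in every group could not. Every adjusted p is limma's with Benjamini-Hochberg adjustment, called under 0.05. This scale understates changes of low genes, and the filter favours short genes: among genes with 10 reads or more in at least 3 libraries, 70.9% with a span up to 10 kb and 29.8% with a span over 50 kb passed. Whole reads, within 0.01, were recovered for all 38571 genes above 0, for 75.8% of them from the GENCODE 29 span and for the rest from a common divisor. They gave the depths and an alternative test (voom). Tables were handled with pandas 2.3.3 in Python 3.11.15. The test was checked on simulated data.

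The groups compared and the gene lists were chosen with earlier results of these data known. Named genes were the 12 largest rises and falls among coding genes with a mean of at least 2 RPKM in a group and no overlap, up to 4 rises and 3 falls per list from the top, 13 check genes, and the 3 largest rises and falls among other features. Other genes with values (AURKA, BIRC5, CDC6, MCM4, MCM5, MCM6, E2F1, BUB3, HSPA5, RHOA, WEE1, ENSA, CDC27, NUMA1, LMNA, CXCL8, CCNB2) were chosen after their values were seen, as were further genes named without a call. Gene coordinates are GENCODE 29 on GRCh38 and promoters are RefSeq on GRCh38.p14; none was converted from hg19.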

Additional observations from a re-analysis of the deposited data

Results flagged for a closer look

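These results met a test of the difference itself: the 4N minus 2N change in control cultures minus the same change after Anillin siRNA, by limma over all genes. It was above 0 for 1383 genes and below 0 for 636. Among the largest control rises the difference was 1.75 for UBE2C, 1.46 for PLK1, 1.70 for TOP2A, 1.31 for TROAP, 1.85 for CDK1 and 1.56 for NEK2 on the log2 scale. It was 1.94 for KPNA2, 0.90 for CDC20, 1.06 for CDCA3, 1.84 for CDCA8, 1.17 for CCNA2 and 1.44 for KIF2C. On recovered reads, without the offset of 0.5, the difference was over 1.5 times smaller for TROAP (0.85), NEK2 (0.83), CDCA3 (0.58) and KIF2C (0.80), and moved by less than that for the other 8. Of the cell cycle check genes it was 1.18 for CCNB1, 0.83 for MKI67 (0.56 on recovered reads) and -0.40 for CCNE2, a call lost with a pseudocount of 0.1 and on recovered reads (-0.29), and ANLN, the siRNA's target, had 1.96. CDKN1A had -0.79.

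Among the largest control falls the difference was -0.56 for ANKRD1, -0.73 for NABP1, -0.62 for IL1B, -0.59 for PTGS2 and -0.49 for LBH. It was -0.40 for ALDH1B1, -0.55 for PTX3 and -0.88 for TM7SF2. In all of these except CDKN1A and ANLN the gene was chosen for, or known for, its change in control cells. The control change is a term of the difference, so the list does not stand as a separate test of it.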

How the results depend on the processing

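No paired analysis was possible because the 12 libraries carry sample numbers that no pair of groups shares, and replicate numbers here only follow accession order. The count of genes lower, 1703, was 3926 on recovered reads and 1102 to 1632 when 1 library was left out, lowest without control 4N replicate 1. The 224 genes at least 2-fold higher were 477 on recovered reads and 199 to 243 with 1 library left out. The 28 genes at least 2-fold lower were 48 with a pseudocount of 0.1, 9 with a pseudocount of 1, 17 with no filter and 271 on recovered reads, and 13 to 27 with 1 library left out, with 16 without control 2N replicate 2 and 13 without control 4N replicate 1. The 636 genes whose change was lower in control than after Anillin siRNA were 1471 on recovered reads and 370 to 651 with 1 library left out, with 370 without control 4N replicate 1 and 401 without Anillin 4N replicate 2. The recovered reads include 22404 genes against 12892. For the other changes the cause was not tested. Of all calls 64.4% were higher as deposited, 46% after quantile scaling, 52.4% after median-of-ratios scaling and 52% on recovered reads, and the median log2 change of all genes was 0.05, -0.02, -0.00 and -0.02.

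Over 193 named genes, 2364 of 2509 alternatives kept direction and call, 127 lost a call, 11 gained one and 7 turned a sign. The sign turned in 4 genes, none of them called: E2F1, CCND1 (-0.0051 after quantile scaling), LMNA (-0.0081 after quantile scaling) and CDC6 (-0.020 after quantile scaling, -0.00024 after median-of-ratios scaling). With 1 library left out, CDC6 ranged from -0.13 to 0.15 and E2F1 from -0.068 to 0.23. The difference between control and Anillin changes turned for GAPDH (-0.069 after quantile scaling) and PCNA (-0.095 after quantile scaling, -0.013 after median-of-ratios scaling, -0.0056 on recovered reads, -0.13 to 0.14 with 1 library left out).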
